A study of Sus scrofa with 6 samples.

Results

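SORL1 encodes the sorting protein-related receptor SORLA, a membrane protein that carries other proteins between the Golgi, endosomes and the cell surface. It was 1 of 7661 gene records in a deposited RNA sequencing table of pig longissimus muscle, the long muscle of the back, and was found as the only record listed under the symbol SORL1 (ENSSSCG00000015135). In the coordinates of that table it lies on chromosome 9 from 53830781 to 53907681 on the minus strand, a span of 76.9 kb that covers exons and introns. SORL1 was picked for its difference between the groups of the study, so its levels and their ratio are given below as a description, without a test.

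The study set muscle of 3 pigs with high intramuscular fat, the fat that lies inside a muscle, against muscle of 3 pigs with low intramuscular fat. Each pig gave 1 library of total RNA from freshly taken muscle, read on an Illumina HiSeq instrument. No treatment, genotype or transgene is named for either group, and the sources used here do not give breed, sex, age or the way in which fat content was measured. The groups are labelled by fat content alone, and neither is named as a control for a manipulation.

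SORLA belongs to the VPS10P-domain receptors, whose members bind cargo inside the secretory and endosomal compartments, and it also carries ligand-binding repeats of the kind found in the low-density lipoprotein (LDL) receptor family. Its short cytoplasmic tail is read by adaptors such as the GGA proteins, AP1, AP2 and PACS1 and by the retromer, the complex that returns receptors from endosomes to the Golgi or the surface. It is best known for sorting the amyloid precursor protein in neurons, and in fat cells it is known to act on the insulin receptor and on receptors for bone morphogenetic proteins.

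SORL1 transcripts were more abundant in every high-fat library than in any low-fat library. In high libraries 1 to 3 it was counted 291, 306 and 308 times and in low libraries 1 to 3, 101, 74 and 66 times, although the high libraries held fewer reads in all (25371989 to 28874691) than the low ones (30139025 to 34813172). After TMM scaling, which corrects library totals for differences in composition, the levels in CPM (reads of the gene scaled to a common library total) were 11.98, 11.6 and 10.7 in the high libraries and 2.87, 2.20 and 2.33 in the low libraries. The groups did not overlap, and the lowest high library lay far above the highest low library. The group means were 11.4 ± 0.640 CPM (SD, n = 3) and 2.47 ± 0.356 CPM (SD, n = 3), a log2 difference of high minus low of 2.21 (SE 0.19), or 4.63-fold. The authors' deposited table gives the same size, 2.21 on the log2 scale once its low-over-high direction is turned round, and SORL1 stands in the authors' deposited list of 134 changed genes.

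**Figure D1:**
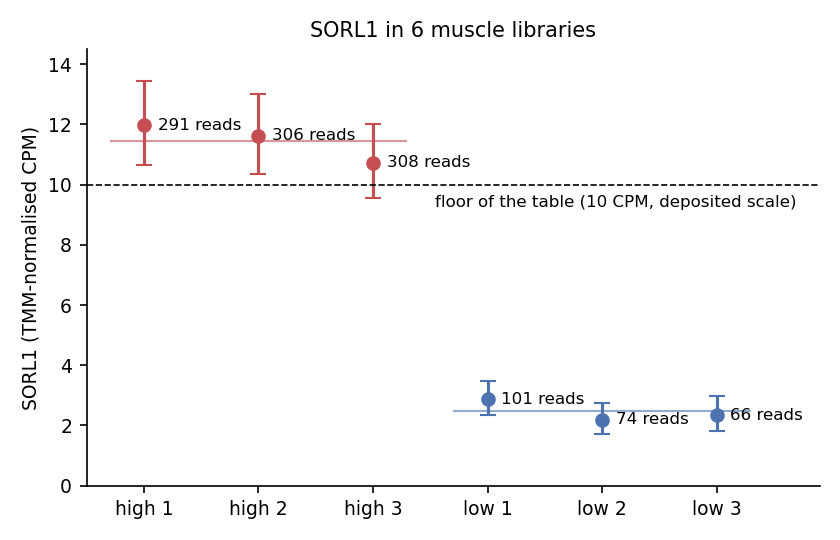
SORL1 level in each library in TMM-scaled CPM (vertical axis, starting at 0) for the high-fat and low-fat groups, with 95% exact Poisson intervals as error bars around the points, horizontal lines at the group means and the 10 CPM floor of the table, which applies to the CPM as deposited. The 3 high libraries sit between 10.7 and 11.98 CPM and the 3 low libraries between 2.20 and 2.87 CPM.

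Within each group the SORL1 levels were close to one another. The 95% exact Poisson intervals, which cover counting error alone, ran from 10.6 to 13.4, from 10.4 to 13.0 and from 9.57 to 12.004 CPM in high libraries 1 to 3. In low libraries 1 to 3 they ran from 2.34 to 3.49, from 1.73 to 2.76 and from 1.80 to 2.97 CPM. Intervals overlapped between all libraries of a group, so the order of the pigs within a group was not resolved at this depth. The coefficient of variation (CV, the SD as a percentage of the mean) was 5.59% in the high group, where counting error alone would give 5.76%. In the low group it was 14.4%, where counting error alone would give 11.3%. The pooled SD of SORL1 within groups on the log2 scale was 0.15, and 29.3% of the records of the table had a smaller one, the median being 0.20.

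SORL1 had the lowest mean level of all 7661 records. Its mean over the 6 libraries was 6.96 CPM, the next lowest record stood at 7.45 CPM and the median record at 27.9 CPM. CPM is not corrected for transcript length, so these ranks compare read numbers and not transcript numbers between genes. Its high-group mean was at rank 692 from the bottom, while its low-group mean was at rank 2. Every record of the table had more than 10 deposited CPM in at least 3 libraries, and SORL1 met that floor with deposited values of 11.5, 11.998 and 10.7 CPM in the high libraries alone, against 2.90, 2.36 and 2.19 CPM in the low ones. A gene this scarce in the low group could enter the table only by being higher in the high group.

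Altogether 71 records (0.927% of the table) were over the floor in the 3 high libraries and in no low library, and 49 (0.640%) in the 3 low libraries and in no high library. The differences of the 71 lay between 0.40 and 2.94 on the log2 scale, with a median of 0.91, and SORL1 had the fifth largest, rank 5. Just inside the floor, the lowest deposited SORL1 value that counted towards it was the 10.7 CPM of high library 3. Records below the floor were not analysed here, so no value just outside it can be given.

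**Figure D2:**
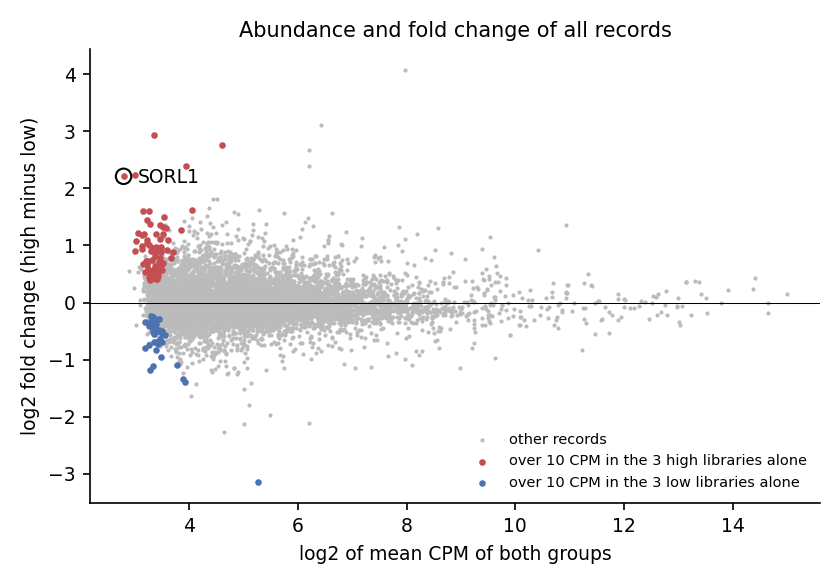
Log2 fold change of high over low (vertical axis) against the log2 of the mean TMM-scaled CPM of both groups (horizontal axis) for the 7661 records, 1 point each, with the records over the floor in the 3 high libraries alone in red and those over it in the 3 low libraries alone in blue. SORL1, circled, is the leftmost point and lies at 2.21 on the vertical axis.

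Ordered from the most raised in the high group downwards, SORL1 held rank 9 among the 7661 records. The 10 records on either side of it in that order were picked by their fold change, so their values are also a description. The closest above it was CA5B, a mitochondrial carbonic anhydrase, with 10.9, 13.0 and 15.7 CPM in high libraries 1 to 3 and 2.96, 3.36 and 2.08 CPM in low libraries 1 to 3, a log2 difference of 2.23 (SE 0.24). CA5B levels were near those of SORL1, its groups did not overlap either, and it was highest in high library 3. PLIN1, the coat protein of fat-cell lipid droplets, stood at 28.4, 38.7 and 60.7 CPM in the high libraries and at 8.04, 4.75 and 6.18 CPM in the low libraries, and CIDE-C, another lipid droplet protein, at 14.0, 23.5 and 40.3 CPM against 3.24, 2.70 and 9.08 CPM. Both were lowest in high library 1 and highest in high library 3, and their log2 differences were 2.75 (SE 0.32) and 2.38 (SE 0.55).

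PRKG1, a cGMP-dependent protein kinase, was likewise lowest in high library 1 and highest in high library 3, with 67.8, 123 and 190.2 CPM, against 23.7, 17.0 and 19.3 CPM in the low group (log2 difference 2.67, SE 0.36). A record listed as ALDOA, whose deposited description is aldolase C, had 19.55, 34.9 and 52.2 CPM against 8.19, 11.1 and 10.99 CPM (1.82, SE 0.34). RETSAT, which saturates retinol, TET2, which oxidises methylated DNA bases, and the secreted peptidase inhibitor PI15 followed at 1.81, 1.62 and 1.62. The enzymes of fatty acid synthesis were not highest in high library 3. FASN, fatty acid synthase (ENSSSCG00000023044), stood at 142, 114 and 115 CPM against 14.0, 32.8 and 23.8 CPM (2.39, SE 0.30), and ACACA, acetyl-CoA carboxylase, at 30.1, 36.1 and 28.0 CPM against 9.55, 10.46 and 9.82 CPM (1.66, SE 0.14).

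SORL1 was even across the high-fat pigs beside records of like fold change, but the floor of the table limits this comparison. SORL1 is listed only because all 3 high libraries passed 10 deposited CPM, close to its high-group mean of 11.4 CPM. With any high library under the floor it would not be listed. Records such as PRKG1, with a high-group mean of 127 CPM, were not limited in this way. The CV in the high group was 5.59% for SORL1, and between 12.8% and 51.2% with a median of 37.8% for the 10 records nearest in fold change. Of those 10, 7 were highest in high library 3. Among the 115 records with a log2 difference of 1 or more, SORL1 included, 12 had a smaller CV in the high group than SORL1, and the median was 19.4%. Over all records the median CV in the high group was 10.6%. The highest of the high libraries was library 1 for 20 of the 115 records, library 2 for 46 and library 3 for 49.

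**Figure D3:**
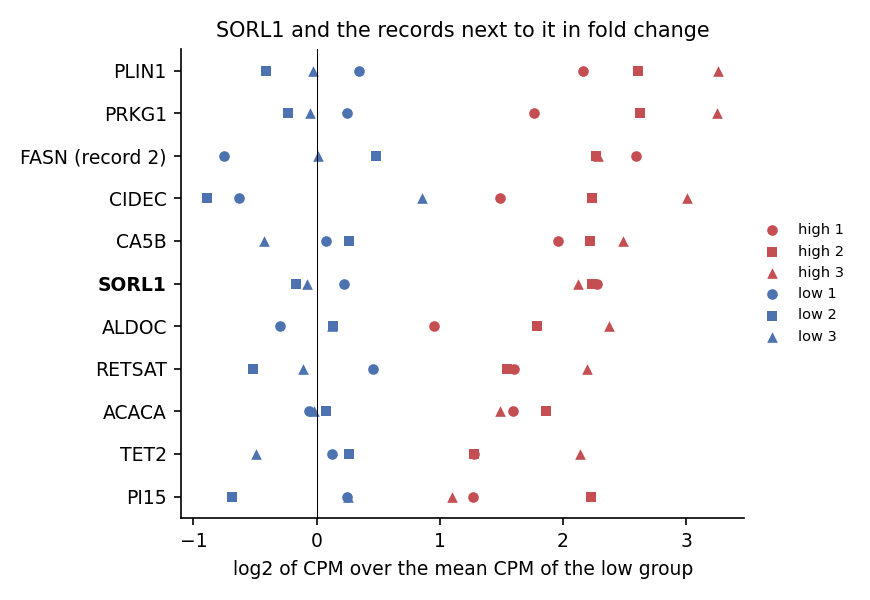
Level in each library as the log2 of its TMM-scaled CPM over the mean of the low group (horizontal axis) for SORL1 and the 10 records nearest to it in fold change, high libraries in red, low libraries in blue and 1 symbol shape per library number (CIDE-C is written CIDEC, the ALDOA record ALDOC, and FASN is ENSSSCG00000023044). The red symbols of SORL1 lie close together (CV 5.59%), while those of PLIN1, PRKG1, CIDEC and ALDOC spread widely with high library 3 farthest right.

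The likeness of each other record to SORL1 was measured as Pearson's r of log2 CPM over the 6 libraries. Because the SORL1 profile is almost wholly the step between the groups, a high r picks records with a clean step of any size, and the points share the same 6 libraries and their scaling. Of 7660 records, 80 (1.04%) had r of at least 0.95 and 72 (0.94%) had r of -0.95 or lower. The log2 differences of the 80 ranged from 0.12 to 4.07 with a median of 0.71, and 18 of them were 1 or more. All 80 had groups that did not overlap, higher in the high libraries, as 13.5% of all records did (26.8% in either direction), which the choice by r brings with it. The 80 included 7 of the 10 other records past the threshold of the quasi-likelihood test of edgeR, whose background was 0.144% of all records, and 20 of the records over the floor in the high libraries alone.

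SLC12A8, a solute carrier of the cation-chloride cotransporter family, had the highest r, 0.996, with 53.6, 54.3 and 53.95 CPM in high libraries 1 to 3 and 37.0, 35.8 and 36.8 CPM in low libraries 1 to 3. Its groups were each very tight and did not overlap, but its log2 difference was 0.56, far smaller than that of SORL1. FAM114A1 (r 0.995) had 14.49, 15.05 and 14.95 CPM against 8.38, 6.89 and 7.49 CPM, a log2 difference of 0.97. CRIM1, a membrane protein that binds bone morphogenetic proteins, came next (r 0.994, log2 difference 0.31).

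The only one of the 10 closest records with a larger difference than SORL1 was FASN, in its record ENSSSCG00000029944 (r 0.989). That record had 172, 145 and 143 CPM in the high libraries and 16.7, 15.4 and 21.5 CPM in the low libraries, a log2 difference of 3.10 (SE 0.18). The groups of that FASN record lay far apart. A pair of records carries the name FASN and reads may be split between them, and the other one (ENSSSCG00000023044) had r of 0.926.

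NOTCH2, a receptor of the Notch pathway, had r of 0.986 with 44.7, 53.1 and 50.4 CPM against 24.8, 19.2 and 21.6 CPM, a log2 difference of 1.18. Other records of the first 10 had small steps. Among them were NCAPH, a condensin subunit (r 0.989, log2 difference 0.26), ANKRD12, a nuclear ankyrin repeat protein (0.989, 0.69), and PODXL, a sialomucin of the cell surface (0.987, 0.26). CTNNB1, beta-catenin, had r of 0.988 with 195, 192 and 194 CPM against 182, 177 and 177 CPM, a log2 difference of 0.12. Its groups did not overlap either, yet the step was close to nil beside the 2.21 of SORL1.

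At the other end, the records that mirrored SORL1 most closely were lower in the high group by small amounts. USPL1, a SUMO-specific isopeptidase, had r of -0.995 and a log2 difference of -0.42, EXOSC10, a catalytic subunit of the nuclear RNA exosome, -0.994 and -0.40, and MRPS11, a protein of the mitochondrial ribosome, -0.994 and -0.31. SHARPIN, a subunit of the linear ubiquitin ligase, had r of -0.992 and a log2 difference of -0.45, and the ubiquitin protease USP21 had -0.990 and -0.38. Over the 72 records the differences ran from -3.15 to -0.11 with a median of -0.42.

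**Figure D4:**
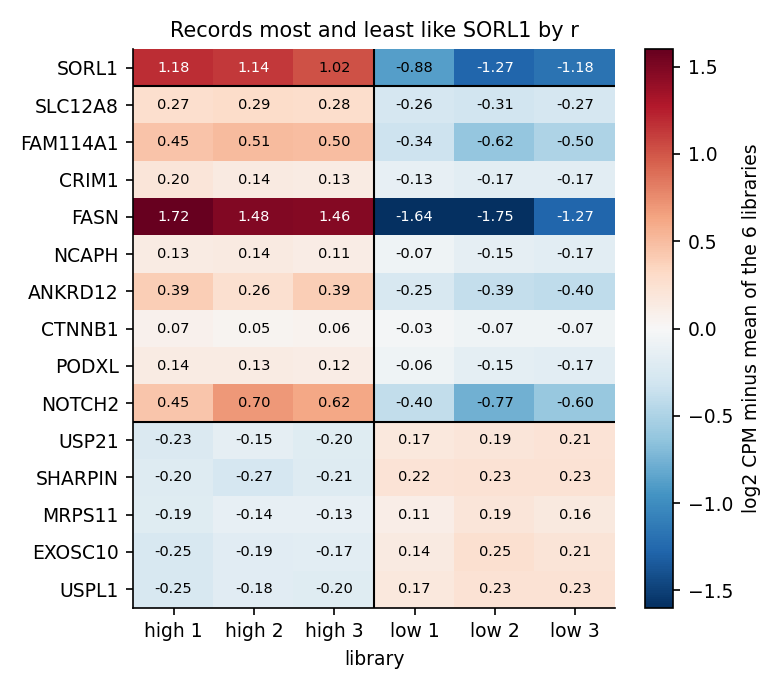
Log2 CPM minus the mean of the 6 libraries (colour and printed value) for SORL1, 9 of the 10 records with the highest r and the 5 with the lowest r, with libraries as columns. FASN is the only one of the 9 whose colours are as strong as those of SORL1, and CTNNB1 is nearly without colour.

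Which records follow SORL1 depended strongly on how likeness was measured and on single libraries. The count of 80 became 146, 98, 138, 250, 162 and 225 without high libraries 1, 2 and 3 and low libraries 1, 2 and 3 in turn, with 63 to 79 of the original 80 among them, but only 2 to 6 of the first 10 stayed among the first 10. By Spearman's rank correlation, 30 records had the same order of all 6 libraries as SORL1, and 6 of these were among the 80. With 6 libraries the next value below 1 is 0.943, so 0.95 admits only an identical order and is a stricter limit there. With the group means removed, so that only the differences between pigs of a group count, 56 records had r of at least 0.95, and 2 of these were among the 80. The 80 had a median r of 0.54 within groups, ranging from -0.63 to 0.99.

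The 5 records that tracked SORL1 best within the groups had log2 differences between the groups of -0.07 to 0.47, far smaller than that of SORL1. CELF1, a splicing regulator, had r of 0.997 after removal of the group means, with 26.1, 25.2 and 23.9 CPM in high libraries 1 to 3 and 30.1, 23.8 and 25.2 CPM in low libraries 1 to 3. CELF1 was highest in library 1 of each group, its groups overlapped and its log2 difference was -0.07. PJA2, a ubiquitin ligase (0.997, log2 difference 0.30), KIAA1715, an endoplasmic reticulum shaping protein (0.993, 0.08), SLAIN2, a microtubule protein (0.992, 0.24), and the unnamed record ENSSSCG00000026340 (0.992, 0.47) completed the 5. Of the 5, only ENSSSCG00000026340 had groups that did not overlap. Since the counting intervals of SORL1 overlapped within each group, these values describe the 6 libraries and no more.

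The other genes of the SORLA pathway were read from 7 lists of 116 names, of which 75 were matched by name to a record, giving 79 records beside SORL1. None of the 79 passed the quasi-likelihood test of edgeR at an adjusted p of 0.05, against 0.144% of all records. At an unadjusted p under 0.05 there were 17, against 18.7% of all records, with 12 higher in the high group (10.3% of all records) and 5 lower (8.41%). DESeq2 called 8, against 6.76% of all records, with 7 higher (4.92%) and 1 lower (1.84%). The exact test of edgeR called 7, against 4.44% of all records, all of them higher (3.47%) and none lower (0.966%), and limma-voom called 0, against 0.104% (0.0914% higher and 0.0131% lower). The median log2 difference of the 79 was 0.12 and that of all records -0.04. Their range was -1.14 to 1.14, below the 2.21 of SORL1. SORL1 was picked for its difference and held rank 9 of 7661 records, so few records of any kind reach that size. The r of the partner records with SORL1 lay between -0.92 and 0.95 (0.946 before rounding, under the limit used above).

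Of the VPS10P-domain family, SORT1, SORCS1, SORCS2 and SORCS3 were not matched by name, which does not show them to be absent from muscle. SORL1 was therefore the only receptor of its family with a value here.

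Retromer, sorting nexin and WASH complex records, which carry receptors such as SORLA out of endosomes, were 14, with a median log2 difference of 0.07 and a range of -0.27 to 0.37. The groups did not overlap for 4 higher and 2 lower records, against 13.5% and 13.3% of all records. The core retromer subunits VPS35 (0.11) and VPS29 (0.01) were level within their SE of 0.13 each. VPS26A, the retromer subunit that contacts the SORLA tail, had 53.3, 51.5 and 61.2 CPM in high libraries 1 to 3 and 45.7, 45.2 and 44.95 CPM in low libraries 1 to 3. Its groups did not overlap, with a log2 difference of 0.29 (SE 0.12, edgeR adjusted p = 0.255). KIAA1033, a WASH complex subunit, stood at 0.37 (SE 0.13) and SNX27, a nexin that couples cargo to retromer, at 0.34 (SE 0.16), while RAB7A, the GTPase that recruits retromer, stood at -0.27 (SE 0.13).

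The tail adaptors, clathrin chains and tail kinase gave 17 records with a median log2 difference of -0.02. GGA1, GGA2 and GGA3, which sort SORLA at the Golgi, lay at -0.02, -0.05 and -0.07 with SEs of 0.13, 0.19 and 0.12. PACS1, which retrieves it from endosomes, lay at 0.37 (SE 0.20) and ROCK2, a kinase of its tail, at 0.34 (SE 0.18). The clathrin heavy chain CLTC stands on 2 records. The less abundant one (ENSSSCG00000022659) had 87.3, 83.8 and 72.95 CPM in the high libraries and 68.6, 46.1 and 38.9 CPM in the low libraries, a log2 difference of 0.67 (SE 0.22, edgeR adjusted p = 0.182). Its groups did not overlap, while the more abundant CLTC record (ENSSSCG00000017666) lay at 0.18 (SE 0.14) with overlapping groups. Of the AP2 subunits, AP2S1 lay at -0.29 (SE 0.12). AP2B1 lay at 0.37 (SE 0.13) in its less abundant record (ENSSSCG00000017712) and at 0.08 (SE 0.14), with overlapping groups, in its more abundant one (ENSSSCG00000024434). Records of 1 name can share reads.

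Ligands and cargo gave 20 records with a median log2 difference of 0.32, of which 5 were higher and 4 lower without overlap of the groups, against 13.5% and 13.3% of all records. The bone morphogenetic protein receptors BMPR2 and BMPR1A were both higher in all high libraries. BMPR2 had 43.5, 49.3 and 41.5 CPM against 32.7, 25.7 and 23.1 CPM (log2 difference 0.72, SE 0.16, edgeR adjusted p = 0.112), and BMPR1A 16.7, 15.2 and 17.1 CPM against 12.1, 8.14 and 6.75 CPM (0.86, SE 0.23, edgeR adjusted p = 0.138). APOE, the lipoprotein ligand of LDL receptor relatives, had 18.1, 25.4 and 28.7 CPM against 14.3, 13.8 and 8.94 CPM (0.96, SE 0.24, edgeR adjusted p = 0.131). These 3 were called by DESeq2 and by the exact test but missed the threshold of the quasi-likelihood test.

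IL6ST, the shared signalling chain of the interleukin-6 receptor family, was also called higher by DESeq2 and by the exact test (0.77, SE 0.21). PLAU, the urokinase that SORLA helps to clear, was called lower by DESeq2 alone (-1.14, SE 0.36). The amyloid precursor gene APP lay at 0.33 (SE 0.20), with overlapping groups. A pair of records carries the name INSR, the insulin receptor, and lay at 0.47 (SE 0.24) and 0.41 (SE 0.22), also with overlapping groups. LPL and GDNF, other known cargo or ligands, were not matched by name.

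Among the 9 records of proteases that cut SORLA or its cargo and of their regulators, the median log2 difference was -0.02. ADAM10 (0.19, SE 0.13), the beta-secretase BACE1 (-0.06, SE 0.13) and FURIN (0.02, SE 0.14) had overlapping groups, and ADAM17, the main SORLA sheddase, was not matched by name. TIMP3, an inhibitor of ADAM17, had 52.3, 64.3 and 51.3 CPM in the high libraries and 30.9, 18.2 and 27.2 CPM in the low libraries. Its groups did not overlap, and its log2 difference of 1.14 (SE 0.21, edgeR adjusted p = 0.0910) was the largest increase of the partner lists, PLAU having the largest decrease. TIMP3 was called by DESeq2 (adjusted p = 0.00020) and by the exact test (adjusted p = 0.00047). The gamma-secretase subunits PSEN2 and APH1A lay at -0.41 (SE 0.19) and -0.28 (SE 0.13).

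The 6 LDL receptor relatives had a median log2 difference of 0.18. LRP6, a co-receptor for Wnt proteins, had 65.1, 87.4 and 81.6 CPM against 43.5, 44.6 and 34.5 CPM without overlap (0.93, SE 0.16, edgeR adjusted p = 0.0910). LRP6 was called by DESeq2 (adjusted p = 0.00017) and by the exact test (adjusted p = 0.00055). LRP12 lay at 0.49 (SE 0.23), LRP10 at -0.23 (SE 0.13) and VLDLR, the very-low-density lipoprotein receptor, at 0.19 (SE 0.12). LRP1 was not matched by name.

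Insulin receptor signalling gave 17 records for 13 matched names, with a median log2 difference of 0.29. Of the 17 records, 13 were positive, against 45.2% of all records, with records of the same name counted separately. SLC2A4, the insulin-regulated glucose transporter, is listed as Q9XT10 on 2 records, which lay at -0.42 and -0.40 (SE 0.16 each). AKT2 lay at 0.05 (SE 0.15) and IGF1R, the receptor for insulin-like growth factor 1, at 0.40 (SE 0.19).

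**Figure D5:**
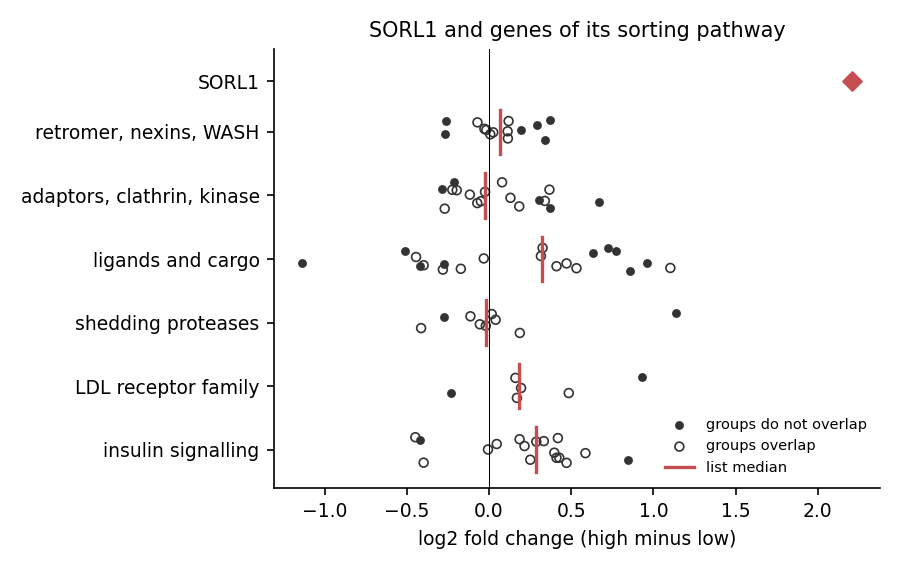
Log2 fold change of high over low (horizontal axis) for each record of the partner lists, grouped by role, with filled points where the groups did not overlap, open points where they did and red bars at the list medians. The partner records lie between -1.14 and 1.14, and SORL1, which was picked for its difference, lies at 2.21.

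Records near SORL1 on chromosome 9 did not show a step of its size, which few records of the table did (SORL1 held rank 9 of 7661). Few of its direct neighbours had a value. Of the 3 RefSeq genes on each side of it in Sscrofa11.1, only SC5D was matched by name to a record. LOC100523684 and LOC102164776 among them could not be matched, because names that start with LOC were not used. The nearest record above SORL1 in the table begins 1388 kb away. The nearest record below it was SC5DL, the sterol desaturase SC5D, which lies 249.997 kb away and is also the next gene below in RefSeq. Its levels were 13.0, 12.1 and 13.1 CPM in high libraries 1 to 3 and 13.0, 14.4 and 9.68 CPM in low libraries 1 to 3, overlapping, with a log2 difference of 0.04 (SE 0.18). ARHGEF12, a guanine nucleotide exchange factor (0.46, SE 0.27), and OAF (-0.08, SE 0.26) came next below, and ENSSSCG00000015142 (-0.17, SE 0.32), ENSSSCG00000024515 (0.22, SE 0.35) and a SNORD14 record (0.15, SE 0.36) above. Within 5 Mb on each side 48 records lay between -0.57 and 0.62 with a median of -0.05. None of the 48 was called by the quasi-likelihood test of edgeR (background 0.144%), by DESeq2 (6.76%), by the exact test (4.44%) or by limma-voom (0.104%). At an unadjusted p under 0.05 there were 5, against 18.7% of all records, and the smallest adjusted p was 0.229.

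Because whole muscle was sequenced, more cells of a type that makes SORL1 and more SORL1 RNA per cell cannot be told apart. Marker genes of fat cells gave 6 records with a median of 1.16, of which 4 had a positive difference, against 45.2% of all records. PLIN1 passed the quasi-likelihood test of edgeR (adjusted p = 0.0404), as 0.144% of all records did, but not limma-voom (adjusted p = 0.0529). At an unadjusted p under 0.05 in the quasi-likelihood test, 4 fat cell records were higher (10.3% of all records) and 1 lower (8.41%). DESeq2 and the exact test each called 3 of them higher (4.92% and 3.47% of all records) and 0 lower (1.84% and 0.966%). Groups did not overlap for 3 higher records and 1 lower, against 13.5% and 13.3% of all records. The lower one was AQP7 (-0.66, SE 0.24), and CFD, also negative (-0.24, SE 0.22), overlapped. The fat cell records summed to 159.2 to 299 CPM in the high libraries and 119 to 158.9 CPM in the low libraries. The defining markers ADIPOQ, LEP and FABP4 were not matched by name. The 10 fibroblast marker records stand for 7 names, as PDGFRA, COL1A1 and COL1A2 are each on several records. All 10 were positive, as 45.2% of all records were, and 8 were higher without overlap (13.5% of all records). None passed the quasi-likelihood test, and 7 were higher at an unadjusted p under 0.05 (10.3% of all records). DESeq2 called 6 of them higher (4.92%), the exact test 5 (3.47%) and limma-voom 0 (0.0914%). The fibroblast records had a median of 0.90 and summed to 3166 to 4204 CPM in the high libraries against 1382 to 2826 CPM in the low libraries. The satellite cell list (4 records, median 0.23) summed to 632 to 736 CPM against 347 to 474 CPM, most of it from MYF5 with group means of 581 and 318 CPM. NCAM1 (0.30) was higher without overlap of the groups, while CDH15 (0.15) and VCAM1 (-0.05) overlapped. Smooth muscle and pericyte markers (8 records, 4 positive and 4 negative, median 0.01) summed to 599 to 663 CPM against 447 to 565 CPM. MYH11 stood at 20.1 and 10.2 CPM, RGS5 at 140.4 and 83.8 CPM and ACTA2 at 176 and 129 CPM, while CNN1 lay at -0.31 and TAGLN at -0.03. In each of these last 2 lists DESeq2 and the exact test called 1 record higher (4.92% and 3.47% of all records) and 0 lower (1.84% and 0.966%).

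The other marker lists overlapped between the groups in their summed level. Macrophage markers (6 records, median -0.10) summed to 147 to 219 CPM in the high libraries and 86.3 to 255 CPM in the low libraries, with CD68, CD163 and CD14 not matched by name. Endothelial markers (6 records, median 0.15) summed to 361 to 409.7 CPM against 291 to 414 CPM, and muscle fibre markers (7 records, median -0.01) to 97014 to 105472 CPM against 91000 to 104911 CPM. Muscle fibre markers were thus abundant in all 6 libraries, which carry the label of a muscle. Lymphocyte and Schwann cell lists had 2 records and 1 record. The part of fat cell, fibroblast, satellite cell and smooth muscle markers in the SORL1 difference was not tested.

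Across the whole table, the listed records held 96.6% to 97.2% of each library total, and mitochondrially encoded genes took 6.99% to 12.7%. The quasi-likelihood test of edgeR called 11 records, 10 higher (0.131%) and 1 lower (0.0131%). The biological CV common to all records was 20.7%, against 16.3% fitted for SORL1. Without high libraries 1, 2 and 3 the test called 6, 2 and 7 records, and without low libraries 1, 2 and 3 it called 30, 1 and 16. The smallest p that exact permutation of 3 against 3 libraries allows for 1 gene is 0.1.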

How the data were processed

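Total RNA was taken from fresh muscle with TRIzol, per the labels' protocols, and made into Illumina TruSeq libraries. The submitters' processing notes name FastQC 0.10.1, Trimmomatic 0.22, TopHat2 2.0.4 and BWA 0.6.2. The sources used here do not give the counter, its use of strand, the build or the annotation, so reads of genes that overlap on opposite strands may not be separated. The authors deposited whole-number read counts per gene, CPM values (counts scaled to the library total), log2 fold changes and mean log2 CPM, and p-values with false discovery rates. The library totals behind the deposited CPM served as library sizes.

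Counts were tested in all 6 libraries with edgeR 4.0.16 (R 4.3.3, TMM, filterByExpr, quasi-likelihood F-test, no covariates), with Benjamini-Hochberg adjustment over all 7661 records and a threshold of 0.05. The SE was taken as the size of the log2 fold change over the root of F. The procedure was tested on simulated data. Likeness to SORL1 used TMM log2 CPM with a prior count of 2, and 0.95 as the limit of r. DESeq2 1.42.0 and limma 3.58.1 (voom) were alternatives, beside other scalings, a filter at a mean CPM of 20, a replicate block, each library left out in turn and removal of the trend with gene span (loess, span 0.5).

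SORL1 and the gene lists were chosen with earlier results of these data known. Named records were SORL1, the 10 with the highest and 5 with the lowest r, the 5 with the highest r within groups, list members past the threshold, the 3 of each partner list with the lowest unadjusted p, 3 records on each side on the chromosome and 5 on each side by fold change. Further list members were named for their role. Some records that the rule takes are not reported here. Symbols came from the deposited table for 6403 records, from an Ensembl name table for 409 and from RefSeq for 135, while 714 kept an identifier, and 312 symbols stood on more than 1 record. No source says whether libraries of a group differ by more than the pig, so what lies behind the variation within groups is not known. The edgeR p-values set the group difference against that variation in these 6 libraries, estimated with information from all records.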

Additional observations from a re-analysis of the deposited data

How the results depend on the processing

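The log2 difference of SORL1 was 2.13 to 2.35 when each library was left out in turn and 2.06 with the trend with gene span removed, and 2.19 to 2.22 under the other settings. A filter at a mean CPM of 20 removes SORL1, so it gives no value there. The 11 records called became 518 with DESeq2, 340 with the exact test, 82 at a threshold of 0.1 and 1 to 30 when each library was left out. Partner records called went from 0 to 8 with DESeq2, 7 with the exact test and 3 at a threshold of 0.1, and were 0 with each library left out. The 80 records that follow SORL1 became 30 by Spearman's rank correlation, 98 to 250 with a library left out, and the 72 that mirror it became 29 and 122 to 200. The cause of these moves was not tested, beyond the smaller number of libraries or the other test in each.

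No pairing by replicate number was visible: same-numbered libraries had correlations of deviations of 0.12, 0.03 and -0.08, and the others had -0.19 to 0.14. With 3 libraries per group these values do not settle whether the libraries were paired. With the replicate block SORL1 stood at 2.22 and 2 records were called.

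Of the settings tried for named records other than SORL1, 773 kept direction and side of the threshold, 38 gained and 26 lost the call, and 11 changed sign. With the span trend removed CELF1 stood at 0.039 and KIAA1715 at -0.076. With each library left out in turn the sign changed for SNORD14 (-0.16 to 0.58), ENSSSCG00000024515 (-0.042 to 0.67), OAF (-0.23 to 0.17), CELF1 (-0.14 to 0.047), SC5DL (-0.10 to 0.16) and ENSSSCG00000015142 (-0.38 to 0.27), all log2 differences. The cause was not tested. Depth limits SORL1 most in the low group, where 66 to 101 reads carry its value.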

Other observations

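A likeness that keeps the size of the step, the root mean square difference of mean-centred log2 profiles, gave other records than r did, and none of the first 10 by r was among the first 10 by this measure. CA5B was closest at 0.30, followed by the biotin-dependent enzyme ACACA at 0.33 (0.325 before rounding). ANTXR1, a collagen-binding receptor of the cell surface, had 29.8 ± 1.43 CPM in the high group and 10.4 ± 3.47 CPM in the low group (SD, n = 3 each), a difference of 0.35 from the SORL1 profile. CD320, the cellular receptor for transcobalamin, had 17.3 ± 0.974 CPM against 6.14 ± 2.19 CPM (SD, n = 3 each), and DDR2, a collagen-binding receptor kinase, 14.1 ± 0.967 CPM against 5.42 ± 1.24 CPM (SD, n = 3 each). By this measure RETSAT (0.36) ranked between ANTXR1 and CD320, and ECM2 (0.39) between CD320 and DDR2. ANTXR1, CD320, ECM2 and DDR2 were named after their values were seen.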
